A study of Homo sapiens with 4 samples.

Results

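The BCL2 family, the caspases and the death receptors, together with the proteins that work directly with them, were taken as a list of 39 gene symbols, and each symbol was found on 1 row of a table of 61806 genes. The list was divided by textbook role into 24 pro-apoptotic genes, 10 anti-apoptotic genes and 5 genes that act in both directions or in neither. Their mRNA was measured by poly(A) RNA-seq in 4 libraries from 2 human bone tumour lines, JJ012 (chondrosarcoma) and 143B (osteosarcoma), each kept in suspension, as untreated control cells or with 1 mM melatonin for 72 h. Detachment from the matrix was part of both arms, so melatonin was compared with control in detached cells only, and adherent cells were not among the samples. Each line is a single established cell line and each of the 4 conditions is 1 library, so no value below has a replicate, and error is given as counting error only. The 7 cartilage markers summed to 17.69 and 7.13 FPKM in JJ012 control and melatonin, and to 16.77 and 13.05 FPKM in 143B. Most of this was SOX9, at 15.06 and 6.16 FPKM in JJ012 and 15.48 and 12.09 FPKM in 143B. COL11A2 was at 1.67 and 0.61 FPKM in JJ012 and 0.52 and 0.55 FPKM in 143B, and MATN3 at 0.91 FPKM or less. COL2A1, ACAN, COL9A1 and HAPLN1 were at 0.11 FPKM or less in every library. The 7 bone markers summed to 94.74 and 68.2 FPKM in JJ012, mostly SPP1 at 79.39 and 64.50 FPKM with COL1A1 at 10.92 and 0.77 FPKM, but to 6.97 and 5.07 FPKM in 143B, where SP7, COL1A1 and SPP1 were at 0.53 FPKM or less and RUNX2 was at 4.28 and 2.75 FPKM. The sum of the bone markers was thus higher in the chondrosarcoma line than in the osteosarcoma line, mostly through SPP1. RUNX2, at 3.02 and 2.59 FPKM in JJ012, was higher in 143B within each condition, although 143B with melatonin was below JJ012 control. BGLAP (0.81 and 0.26 FPKM in JJ012, 1.44 and 1.21 FPKM in 143B) was also higher in 143B. ALPL was below 1 FPKM in every library and near equal in the controls (0.35 and 0.08 FPKM in JJ012, 0.36 and 0.23 FPKM in 143B). SP7 and IBSP were at 0.13 FPKM or less in every library. The tumour type of either line is taken from its label and not from these markers.

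Apoptosis is decided at the outer membrane of the mitochondrion by the balance between BCL2-like survival proteins, BH3-only proteins that bind and block them, and the effectors that open the membrane when released. Cytochrome c then leaves the mitochondrion and assembles with APAF1 into the apoptosome, which activates caspase-9, while IAP proteins hold caspases back. A parallel route starts at death receptors of the TNF receptor family, which recruit adaptors and caspase-8, and anoikis is the form of apoptosis that follows loss of attachment to the matrix.

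The libraries held between 15889564 and 19218343 counts, of which the 39 genes together took 1910 CPM (counts scaled to a common library total) in JJ012 control, 2650 CPM in JJ012 with melatonin, 3436 CPM in 143B control and 3894 CPM in 143B with melatonin. Between 31 and 33 of the 39 genes reached 1 FPKM (the count per kilobase of exon, scaled to the library total) in a library. The smallest level that 3 counts could show was 0.156 to 0.189 CPM. Changes were measured as the log2 ratio of FPKM with 1 added, over genes at 1 FPKM or more in at least 1 of the 2 libraries compared, and a gene is said to have risen or fallen when this log2 fold change was at least 0.58 in size. Folds without a log are ratios of CPM, with an exact 95% interval that covers counting error. In these bulk libraries, fewer cells of a type and less RNA per cell cannot be told apart. The share of counts from mitochondrial genes was 6.78% and 4.35% in JJ012 control and melatonin, and 1.63% and 2.46% in 143B, and its part in the changes was not tested. Of 5 leukocyte markers, CD3E (9.73 and 3.28 FPKM) and CD68 (3.30 and 2.15 FPKM) were above 1 FPKM in JJ012 control and melatonin, where the 5 summed to 14.12 and 5.87 FPKM against 0.96 and 1.23 FPKM in 143B. PTPRC, which marks leukocytes in general, was at 0.14 FPKM or less in all 4 libraries. The part of these markers in the changes was not tested.

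**Figure D1:**
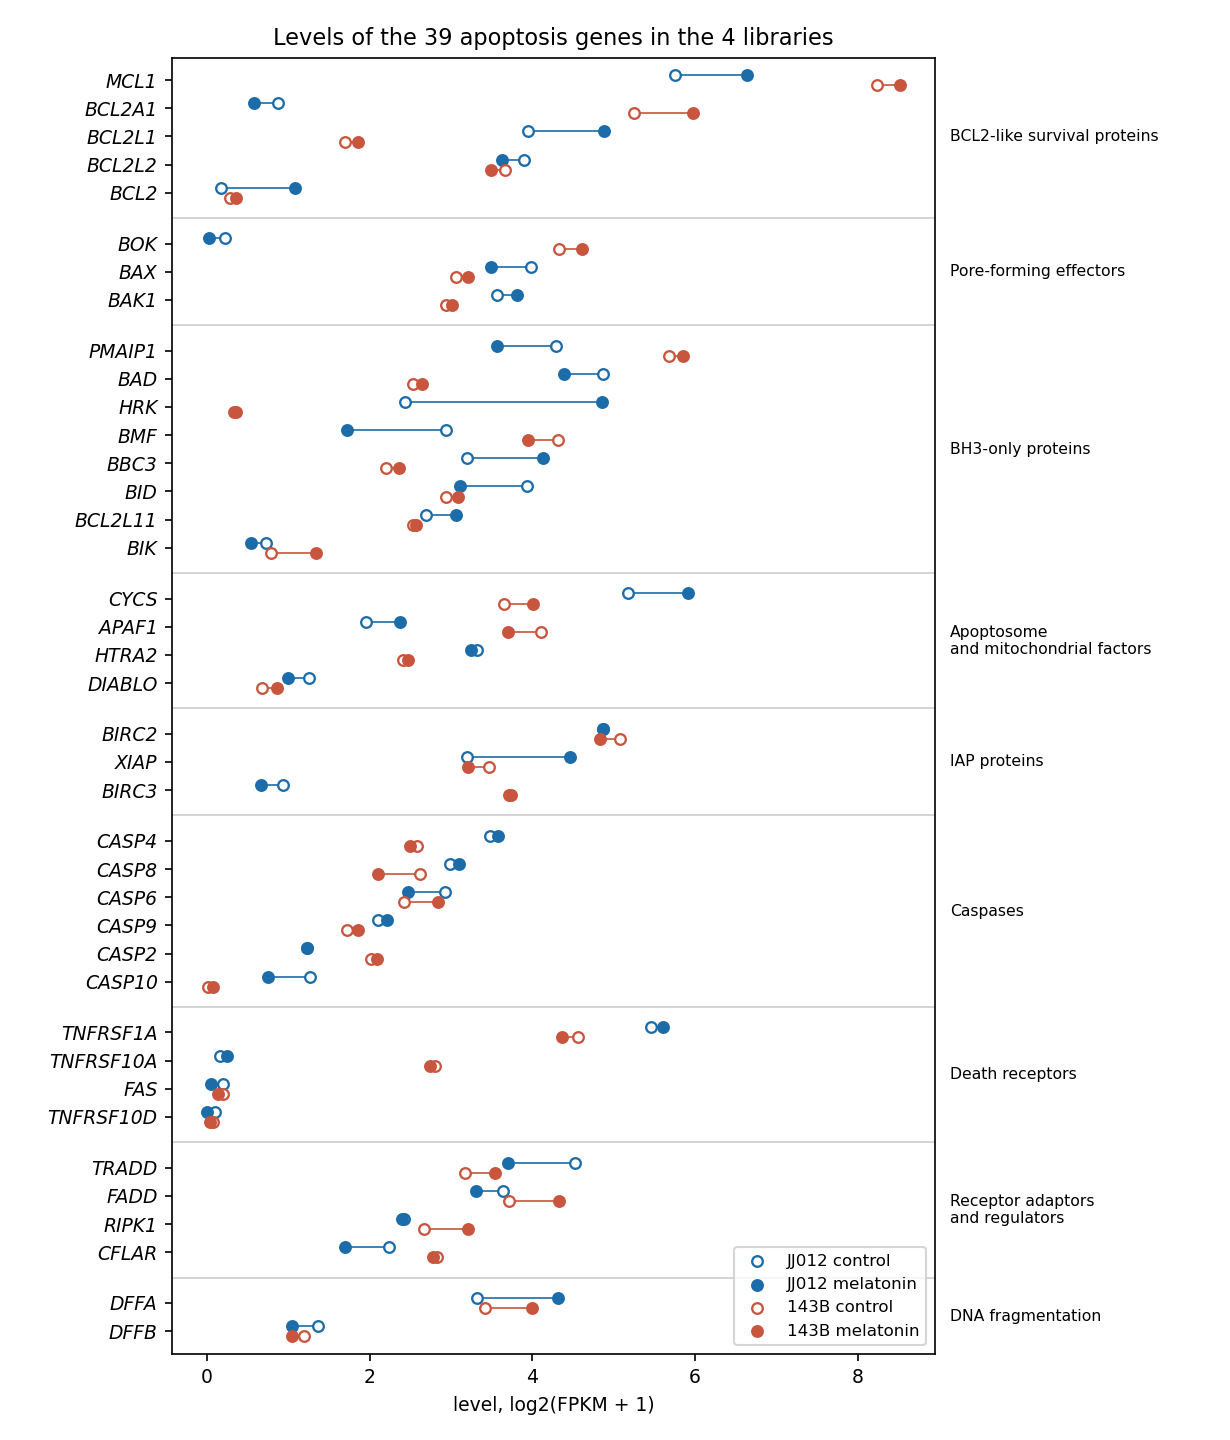
Levels of the 39 genes in the 4 libraries, as log2(FPKM + 1), by role (open circle, control; filled circle, melatonin; blue, JJ012; red, 143B; 1 library a point). MCL1 has the highest level in every library, and HRK in JJ012 has the longest line between control and melatonin.

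In JJ012 cells, 32 of the 39 genes passed the filter on low values, of which 8 rose with melatonin (HRK, XIAP, DFFA, BBC3, BCL2L1, BCL2, MCL1 and CYCS) and 4 fell (BMF, TRADD, BID and PMAIP1). These 12 were 37.5% of the genes that passed, beside 38.2% of all 15794 genes (19.6% rose and 18.6% fell), so the apoptosis genes were called about as often as any gene in this line. All 12 also had a counting interval that left out a ratio of 1. Fold and interval together were thus met by 37.5% of the members that passed the filter, beside 34.4% of all genes. The median log2 fold change was 0.005 over the 32 genes and 0.008 over all genes. In 143B cells, 33 genes passed the filter, 3 rose (BCL2A1, FADD and DFFA) and none fell, which was 9.09% beside 12.7% of all 14135 genes (6.09% rose and 6.65% fell). All 3 had an interval above 1, and 8.04% of all genes passed fold and interval together. DFFA was the single member that rose in both lines, and no member was called in opposite directions. The share of all genes called in both lines was not counted, so this overlap is a description. BCL2 in JJ012 passed the filter through its melatonin library alone and CASP10 through its control library alone, as BIK did in 143B through melatonin.

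**Figure D2:**
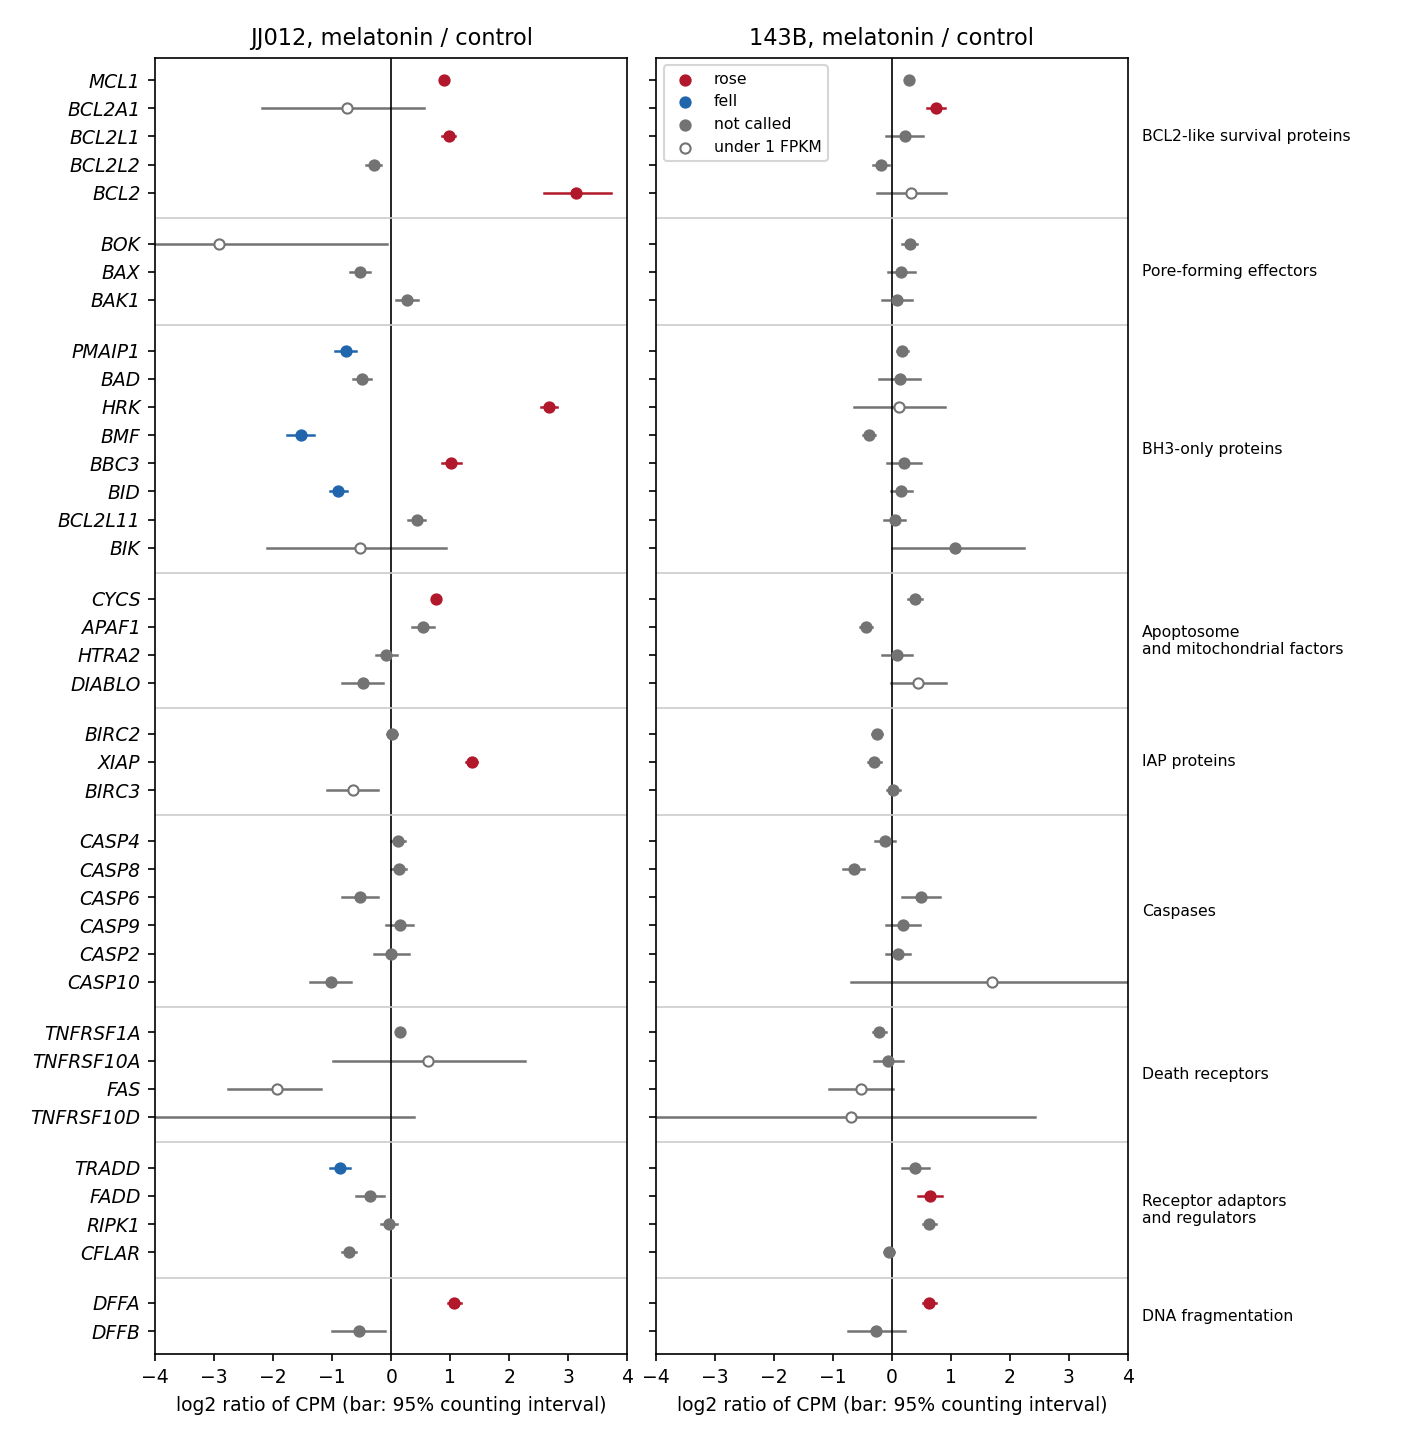
Log2 ratio of CPM, melatonin over control, for the 39 genes in JJ012 (left) and 143B (right), with bars for the 95% counting interval and genes called by the FPKM log2 fold change in red (rose) or blue (fell). The 12 called genes of JJ012 spread to both sides of 0, and the 143B points lie closer to 0.

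Among the BCL2-like survival proteins, 3 of the 4 that passed the filter rose in JJ012 (MCL1, BCL2L1 and BCL2, the last of which passed through its melatonin library alone), and 1 of 4 rose in 143B (BCL2A1). Of all genes, 19.6% rose in JJ012 and 6.09% in 143B, and counts of so few genes are a description. MCL1, a short-lived protein that holds BAK and BH3-only proteins, lies at chr1:150560895-150579738 and was the most abundant member by FPKM in every library. MCL1 was at 53.15 FPKM in JJ012 control, 98.74 FPKM in JJ012 with melatonin, 299.15 FPKM in 143B control and 366.03 FPKM in 143B with melatonin. Both 143B libraries were above both JJ012 libraries. MCL1 rose by 1.86-fold with melatonin in JJ012 (95% counting interval 1.80 to 1.92), while the ratio in 143B was 1.22 (1.21 to 1.24) with a log2 fold change of 0.29, short of the threshold. BCL2L1, which encodes BCL-XL (chr20:31664452-31723989), was at 14.47 and 28.38 FPKM in JJ012 control and melatonin, and at 2.25 and 2.61 FPKM in 143B. Its rise in JJ012 was 1.96-fold (1.82 to 2.11), and both JJ012 libraries stood above both 143B libraries, the reverse of MCL1. BCL2, the founding member of the family (chr18:63123346-63320128), was scarce, with 31 and 228 counts in JJ012 (0.13 and 1.12 FPKM) and 45 and 61 counts in 143B (0.22 and 0.28 FPKM). Its CPM in JJ012 rose 8.76-fold (5.999 to 13.2), the largest ratio of any called member, but its level with melatonin remained the lowest of the 8 genes that rose.

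BCL2A1, an NF-kappa B target that blocks BH3-only proteins (chr15:79960892-79971196), was mainly a 143B gene by its level. It was at 37.00 FPKM in 143B control and 62.12 FPKM with melatonin, a rise of 1.68-fold (1.52 to 1.86), and at 0.84 and 0.50 FPKM in JJ012, where it held 16 and 8 counts. BCL2L2, which encodes BCL-W, was at 13.91 and 11.34 FPKM in JJ012 and 11.65 and 10.29 FPKM in 143B. It was not called in either line, although both counting intervals lay below 1 (ratio 0.815, 0.748 to 0.889, in JJ012 and 0.883, 0.803 to 0.971, in 143B).

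None of the pore-forming effectors, which open the outer mitochondrial membrane, was called in either line. BOK, an effector that can act without BAX and BAK, was at 19.02 and 23.41 FPKM in 143B, where its ratio was 1.23 (1.12 to 1.35). In JJ012 BOK was at 0.17 and 0.02 FPKM, from 9 counts in the control and 1 with melatonin, with a ratio of 0.132 (0.00302 to 0.955). It was thus the leading effector by FPKM in 143B and close to the floor in JJ012. BAX was at 14.76 and 10.22 FPKM in JJ012 (log2 fold change -0.49) and 7.35 and 8.22 FPKM in 143B (0.14). BAK1 was at 10.82 and 13.02 FPKM in JJ012 (0.25) and 6.66 and 7.06 FPKM in 143B (0.07).

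The BH3-only proteins, the sensors that start the mitochondrial pathway, held the highest and the lowest FPKM log2 fold change of the 32 genes past the filter in JJ012. Of the 7 that passed the filter, HRK and BBC3 rose, BMF, BID and PMAIP1 fell, which was 71.4% beside 38.2% of all genes, and none of the 7 that passed in 143B was called, beside 12.7% of all genes. HRK, or Harakiri, binds BCL2 and BCL-XL, and was at 4.40 FPKM in JJ012 control (579 counts) and 28.01 FPKM with melatonin (3099 counts). In 143B HRK was at 0.26 and 0.28 FPKM, from 28 and 33 counts. The rise in JJ012 was 6.37-fold (5.83 to 6.98), a log2 fold change of 2.43, the largest of the 32 genes, and HRK was below the filter in 143B with a ratio of 1.09 (0.639 to 1.87). BMF, a BH3-only protein held by the cytoskeleton and released on detachment, was at 6.69 and 2.31 FPKM in JJ012 and 18.90 and 14.41 FPKM in 143B. BMF fell by 2.90-fold in JJ012 (2.47 to 3.40), with a log2 fold change of -1.22 in FPKM that was the lowest of the 32 genes past the filter, and was 1.31-fold lower (1.22 to 1.41) in 143B without reaching the threshold. Both ratios lay below 1 with their intervals, although the 143B libraries kept more BMF mRNA than either JJ012 library.

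The promoters of HRK and BMF are shown because these genes had the largest rise and the largest fall in FPKM log2 fold change. HRK lies at chr12:116856144-116881441 and BMF at chr15:40087890-40108892, both on the minus strand in the deposited table (hg38). The windows below run from 250 bases before to 50 after the RefSeq start of each gene (GRCh38.p14), chr12:116881392-116881691 for HRK and chr15:40108830-40109129 for BMF, 5′ to 3′ on the minus strand. Capitals mark matches, on either strand, to GGGCGG (the GC box) and to GGGANNNNCC (an NF-kappa B site).
HRK: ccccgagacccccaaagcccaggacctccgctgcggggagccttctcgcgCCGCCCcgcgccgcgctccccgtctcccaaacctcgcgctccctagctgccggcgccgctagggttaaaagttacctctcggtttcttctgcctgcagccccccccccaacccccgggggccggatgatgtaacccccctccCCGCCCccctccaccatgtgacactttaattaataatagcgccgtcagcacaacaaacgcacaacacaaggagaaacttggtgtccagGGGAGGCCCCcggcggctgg
BMF: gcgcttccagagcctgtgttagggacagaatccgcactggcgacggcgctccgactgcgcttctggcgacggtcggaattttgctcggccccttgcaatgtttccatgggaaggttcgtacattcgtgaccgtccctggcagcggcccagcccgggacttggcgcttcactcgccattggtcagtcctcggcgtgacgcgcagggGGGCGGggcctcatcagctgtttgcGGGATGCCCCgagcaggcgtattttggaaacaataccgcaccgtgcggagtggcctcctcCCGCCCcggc
Both windows held 2 GC boxes and 1 NF-kappa B match, with a GC content of 66.3% in HRK and 65.0% in BMF, so the gene that rose and the gene that fell had the same number of each match. Of the 31 members with a promoter sequence, 71.0% held a GC box, against 44.6% of 27305 promoters, and 48.4% held the NF-kappa B match, against 25.1%. Also searched on both strands were CACGTG (E-box, 12.9% of members and 7.43% of all promoters), TGACGTCA (cAMP response element, 3.23% and 1.98%), TGANTCA (AP-1 site, 9.68% and 7.76%), TATAAA (9.68% and 12.0%) and the p53 half-site (3.23% and 6.54%). The only member with a p53 half-site in this window was BAK1. Median GC content was 66.3% over the 31 members and 58.3% over all promoters. These matches are letters in a window and were not tested for binding.

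BBC3, or PUMA, a p53 target that binds every BCL2-like survival protein, lies at chr19:47220822-47232766. It was at 8.18 and 16.57 FPKM in JJ012, a rise of 2.02-fold (1.81 to 2.26), and at 3.58 and 4.13 FPKM in 143B, a ratio of 1.16 (0.946 to 1.41). BID, which links death receptor signalling to the mitochondrion once caspase-8 has cut it (chr22:17734138-17774770), was at 14.26 and 7.67 FPKM in JJ012 and 6.68 and 7.46 FPKM in 143B. BID fell by 1.86-fold in JJ012 (1.68 to 2.06), which brought it near its 143B levels, and its 143B ratio was 1.12 (0.987 to 1.26). PMAIP1, or NOXA, the main partner of MCL1 among these sensors (chr18:59899996-59904305), had the highest FPKM of any BH3-only gene in both 143B libraries, while BAD led in JJ012 control and HRK in JJ012 with melatonin. PMAIP1 was at 18.57 and 10.88 FPKM in JJ012, a fall of 1.71-fold (1.51 to 1.93) that did not reach the threshold on TPM, and at 50.38 and 56.82 FPKM in 143B, a ratio of 1.13 (1.06 to 1.202). The intervals of PMAIP1 lay on opposite sides of 1 in the 2 lines. The remaining sensors were not called: BAD was at 28.21 and 19.95 FPKM in JJ012 and 4.79 and 5.25 FPKM in 143B, and BCL2L11, which encodes BIM, ranged from 4.78 to 7.32 FPKM over the 4 libraries. BIK had 7 to 25 counts in a library, and its ratio of 2.10 in 143B had an interval of 0.999 to 4.74.

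Among the apoptosome and mitochondrial factors, CYCS, which encodes cytochrome c (chr7:25118656-25125260), was the single gene called. CYCS was at 35.24 and 59.41 FPKM in JJ012, a rise of 1.69-fold (1.62 to 1.76), and at 11.52 and 15.13 FPKM in 143B, a ratio of 1.31 (1.21 to 1.42). Both intervals were above 1, with 143B below the threshold (log2 fold change 0.37). APAF1, the scaffold of the apoptosome, was at 2.87 and 4.17 FPKM in JJ012 and 16.24 and 11.98 FPKM in 143B. Its ratios were 1.45 (1.28 to 1.65) and 0.738 (0.690 to 0.788), so that the lines stood on opposite sides of 1 without a call in either. HTRA2, a mitochondrial protease that antagonises IAP proteins, was at 8.99 and 8.48 FPKM in JJ012 and 4.31 and 4.57 FPKM in 143B. DIABLO, or SMAC, which frees caspases from XIAP, was low in all 4 libraries, from 0.60 to 1.39 FPKM.

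XIAP, the IAP protein that directly inhibits caspases (chrX:123859712-123913972), was at 8.17 and 20.99 FPKM in JJ012 and 10.10 and 8.22 FPKM in 143B. It rose by 2.57-fold in JJ012 (2.42 to 2.73) and had a ratio of 0.814 (0.756 to 0.876) in 143B, where it was not called. The JJ012 melatonin library was thus the high one, with the other 3 libraries close together. BIRC2, or cIAP1, a ubiquitin ligase of TNF receptor signalling, was the most abundant IAP gene by FPKM, at 28.13 and 28.33 FPKM in JJ012 and 32.64 and 27.41 FPKM in 143B. BIRC3, or cIAP2, was at 12.10 and 12.31 FPKM in 143B and at 0.91 and 0.58 FPKM in JJ012. Neither was called, and BIRC3 was below the filter in JJ012, with 132 and 71 counts and a ratio of 0.640 (0.473 to 0.861).

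No caspase of the list was called in either line, although all 6 passed the filter in JJ012 and 5 in 143B. This holds for the main setting: CASP10 counted as fallen in JJ012 on TPM, on CPM, with the length trend removed and with a pseudocount of 0.1 FPKM, and CASP8 counted as fallen in 143B on TPM, on CPM and with that pseudocount. CASP4, an inflammatory caspase, had the highest FPKM in both JJ012 libraries, and CASP8 in 143B control and CASP6 in 143B with melatonin. CASP4 was at 10.16 and 10.99 FPKM in JJ012 and 5.0 and 4.62 FPKM in 143B. CASP8, the initiator downstream of death receptors, was at 6.95 and 7.57 FPKM in JJ012 and 5.17 and 3.30 FPKM in 143B. The 143B value came nearest to a call, with a log2 fold change of -0.52 and a CPM ratio of 0.638 (0.561 to 0.725). CASP6 was at 6.59 and 4.56 FPKM in JJ012 and 4.37 and 6.15 FPKM in 143B, with intervals on opposite sides of 1. CASP9, the apoptosome's initiator, ranged from 2.29 to 3.62 FPKM and CASP2 from 1.35 to 3.27 FPKM over the 4 libraries. CASP10, the initiator related to caspase-8, was seen mainly in JJ012, with 242 and 100 counts (1.41 and 0.69 FPKM) against 2 and 7 counts in 143B. Its JJ012 ratio was 0.492 (0.386 to 0.623), a log2 fold change of -0.51 once 1 FPKM was added, which kept it uncalled.

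Few death receptors of the list passed the filter on FPKM, 1 of 4 in JJ012 and 2 of 4 in 143B, and none was called in the main setting. TNFRSF1A, the ubiquitous receptor for TNF, was at 42.96 and 47.80 FPKM in JJ012 and 22.66 and 19.59 FPKM in 143B. TNFRSF10A, a receptor for TRAIL, was at 5.96 and 5.71 FPKM in 143B and at 0.12 and 0.19 FPKM in JJ012. FAS had 82 and 18 counts in JJ012, a ratio of 0.261 (0.148 to 0.439), and 69 and 52 counts in 143B, a ratio of 0.698 (0.477 to 1.015). Its FPKM of 0.04 to 0.15 rests on an exonic length of 29313 bases in the deposited table, 6.89 times that in GENCODE release 29, so the filter on FPKM left it out, although in 143B it had more counts than BIK, which passed. On CPM, which does not use exonic length, FAS counted as fallen in JJ012. TNFRSF10D, a decoy receptor for TRAIL, had 5 counts or fewer in each library, and no change was detectable at this depth.

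TRADD, the adaptor that joins TNFRSF1A to either survival or death signalling (chr16:67154185-67159909), was at 21.98 and 12.00 FPKM in JJ012 and 8.05 and 10.62 FPKM in 143B. It fell by 1.83-fold in JJ012 (1.63 to 2.06), a call lost once the trend with gene length was subtracted, and had a ratio of 1.32 (1.13 to 1.54) in 143B. FADD, which brings caspase-8 to death receptors (chr11:70203296-70207390), was at 12.12 and 19.0 FPKM in 143B, a rise of 1.57-fold (1.37 to 1.80) whose call was lost in the same way, and at 11.42 and 8.89 FPKM in JJ012, a ratio of 0.778 (0.659 to 0.916). Both adaptors thus had intervals below 1 in JJ012 and above 1 in 143B. RIPK1, the kinase shared by survival and death signalling, was at 4.38 and 4.28 FPKM in JJ012 and 5.34 and 8.27 FPKM in 143B. Its 143B ratio was 1.55 (1.43 to 1.67), with a log2 fold change of 0.55 that left it uncalled in the main setting. On CPM and with a pseudocount of 0.1 FPKM, RIPK1 counted as risen in 143B. The exonic length of RIPK1 in the deposited table is 2.88 times that in GENCODE release 29, which lowers its FPKM. CFLAR, or c-FLIP, which blocks caspase-8 at the receptor, was at 3.70 and 2.25 FPKM in JJ012 and 6.08 and 5.87 FPKM in 143B. Its JJ012 log2 fold change of -0.53 was the largest in size of an uncalled member in that line, beside 0.72 for the smallest called. The CPM ratio of CFLAR there was 0.608 (0.558 to 0.662). CFLAR counted as fallen in JJ012 on CPM, with a pseudocount of 0.1 FPKM and with the length trend removed.

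DFFA, the inhibitor and chaperone of the nuclease that cuts DNA in apoptosis (chr1:10456522-10472529), was at 8.97 and 18.84 FPKM in JJ012 and 9.67 and 14.98 FPKM in 143B. It rose in both lines, by 2.10-fold (1.95 to 2.26) and 1.55-fold (1.43 to 1.68), and both melatonin libraries were above both controls. In 143B its log2 fold change of 0.58 sat at the threshold. The call was lost on TPM (0.56), with the median of all genes subtracted (0.56) and with the length trend removed (0.57). DFFB, the nuclease itself, was at 1.07 to 1.57 FPKM in the 4 libraries and was not called.

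By class, the 20 pro-apoptotic genes that passed the filter in JJ012 divided into 3 that rose (HRK, BBC3 and CYCS), 3 that fell (BMF, BID and PMAIP1) and 14 that were not called, with a median log2 fold change of -0.17. The 7 anti-apoptotic genes that passed divided into 4 that rose (BCL2, BCL2L1, MCL1 and XIAP) and 3 that were not called, with a median of 0.88 (values from -0.53 to 1.26), beside 0.01 for all genes. Of the 3 uncalled, CFLAR counted as fallen on CPM, with a pseudocount of 0.1 FPKM and with the length trend removed. BCL2 passed through its melatonin library alone, and without it the median was 0.45. The other 3 anti-apoptotic genes, BCL2A1, BIRC3 and TNFRSF10D, were below the filter in JJ012, and each had a lower CPM with melatonin than in the control. Over all 10 anti-apoptotic genes without the filter the median was -0.04, and over all 24 pro-apoptotic genes it was -0.165, so the higher anti-apoptotic median rests on which genes passed the filter. Of the genes that passed in JJ012, 30.0% of the pro-apoptotic and 57.1% of the anti-apoptotic, BCL2 included, were called, beside 38.2% of all genes. Among all genes 19.6% rose and 18.6% fell, and counts of so few members are a description. The medians of the 2 classes cannot be tested against each other with 1 library a condition. By the counting intervals of all 24 pro-apoptotic genes in JJ012, 6 ratios lay above 1, 12 below and 6 included it. Of all 10 anti-apoptotic genes 4 lay above, 3 below and 3 included it. These sides were not counted over all genes of the line, so no lean of either class can be read from them. In 143B the medians were 0.12 over 20 pro-apoptotic genes (FADD rose) and -0.01 over 8 anti-apoptotic genes (BCL2A1 rose), beside 0.03 for all genes. The shares called there were 5.0% and 12.5%, beside 12.7% of all genes. Of the 5 remaining genes, DFFA rose and TRADD fell in JJ012, DFFA rose in 143B, and TNFRSF1A, RIPK1 and CASP4 were not called. The JJ012 medians moved with the scaling: on TPM, which rescales FPKM to the same sum in every library and lets in weaker genes at a filter of 1 TPM, the anti-apoptotic median was 0.28 and the pro-apoptotic median -0.08, while the median of all genes shifted to 0.27, and the 4 anti-apoptotic risers kept their call.

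**Figure D3:**
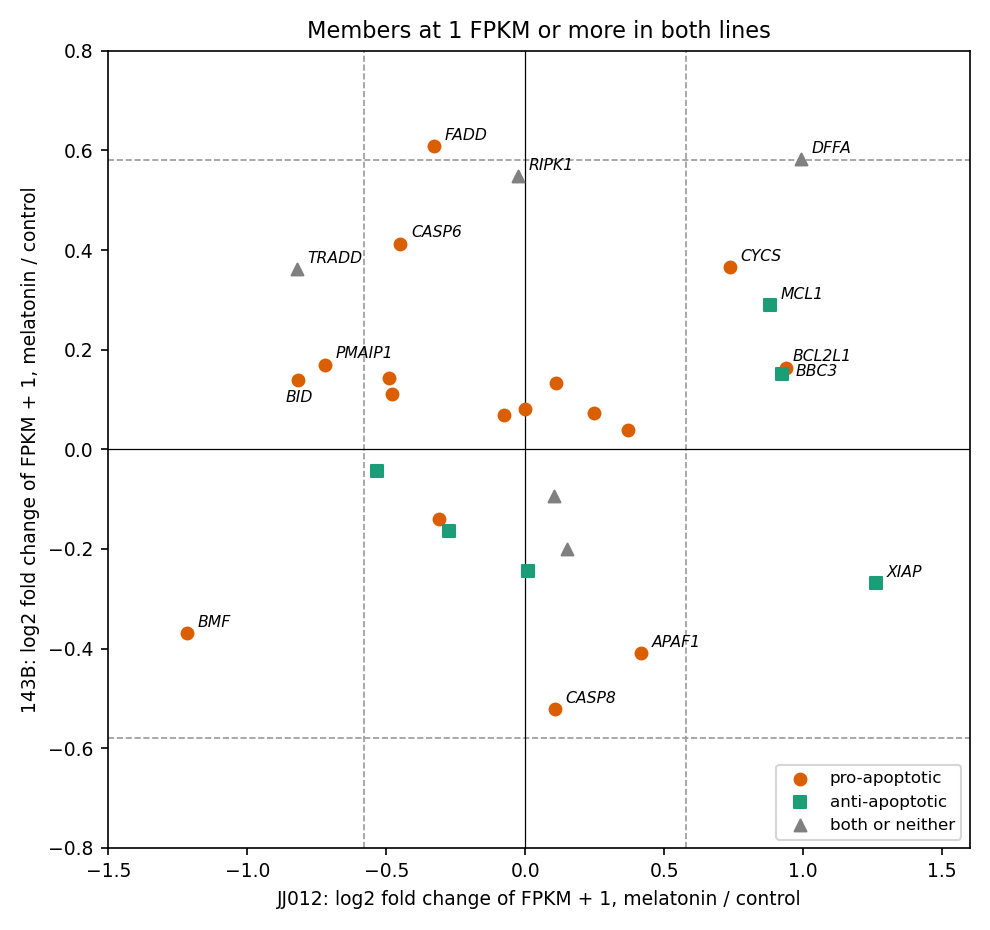
Log2 fold change of FPKM + 1 with melatonin in JJ012 (x axis) and in 143B (y axis) for the 28 genes that passed the filter in both lines, with dashed lines at 0.58 in size and 1 library a condition in each line. DFFA alone is past both lines, and XIAP and BMF lie farthest to the right and left.

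Of the 28 genes that passed in both lines, 12 had log2 fold changes of the same sign, 15 of opposite sign (53.6%) and 1, CASP2, had none in JJ012, beside 48.9% of opposite sign among the 11822 genes that passed in both. Over all 39 genes, the counting intervals of 8 lay on opposite sides of 1 in the 2 lines (APAF1, BOK, CASP6, FADD, PMAIP1, TNFRSF1A, TRADD and XIAP). Without BOK, which was below the filter in JJ012, these were 7 of the 28 (25.0%), beside 21.5% of the 11822 genes. Those of CYCS, DFFA and MCL1 were above 1 in both lines, and those of BCL2L2 and BMF below 1 in both, together 17.9% of the 28 beside 22.6% of the 11822 genes. Whether these responses differ between the lines was not tested, since 1 library a condition leaves no error for it. Melatonin over both lines could be tested with the lines as the replicates, in an edgeR quasi-likelihood fit over 19301 genes with 1 residual degree of freedom from the design. None of the 38 members in that fit passed a Benjamini-Hochberg adjusted p of 0.05, beside 0.352% of all genes, and 4 had an unadjusted p under 0.05, beside 5.90% of all genes. These were HRK (log2 fold change 1.64, adjusted p = 0.0726), BCL2 (1.73, adjusted p = 0.316), BMF (-0.96, adjusted p = 0.584) and DFFA (0.85, adjusted p = 0.780). Each had the same sign in both lines, but in 143B HRK and BCL2 were below the filter. Their 143B ratios of 1.09 (0.639 to 1.87) and 1.25 (0.840 to 1.89) had intervals that included 1. By DESeq2 on the same design, 0 of 39 members passed, beside 7 of 38505 genes, and 2 members had no adjusted p. An unadjusted p under 0.05 was held by 3 members, beside 372 of the 38505 genes.

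The lines also differed before treatment. Of 35 members at 1 FPKM or more in either control, 13 were higher in JJ012 and 10 in 143B, together 65.7%. This stood beside 68.7% of 16929 genes, with 41.3% higher in JJ012 and 27.4% in 143B. Fold and an interval that left out 1 were met together by 65.1% of the 16929 genes. Higher in JJ012 were BAD (5.89-fold, 4.90 to 7.13), BCL2L1 (6.43-fold, 5.42 to 7.68) and HRK (17.1-fold, 11.7 to 25.96), with CYCS, TRADD, CASP10, BBC3, BID, BAX, HTRA2, CASP4, TNFRSF1A and BAK1. Higher in 143B were BOK (109-fold, 57.1 to 239), TNFRSF10A (47.9-fold, 22.9 to 120.2), BCL2A1 (44.2-fold, 27.0 to 77.9), BIRC3 (13.2-fold, 11.1 to 15.95), APAF1 (5.66-fold, 5.09 to 6.30) and MCL1 (5.63-fold, 5.48 to 5.78), with BMF, PMAIP1, CASP2 and CFLAR. Among the survival genes, BCL2L1 was thus the one higher in JJ012, and MCL1 and BCL2A1 were higher in 143B. The median log2 ratio of all genes, JJ012 over 143B, was 0.29, and on TPM, which brought it to -0.01, the split was 12 against 13. With the running median over gene length subtracted, an alternative chosen after seeing the data, 6 members were higher in JJ012 and 11 in 143B, 15 of the 23 calls were kept, and BAX, BAK1, BID, BBC3, HTRA2, TNFRSF1A, TRADD and CFLAR lost theirs. Line and library cannot be told apart here.

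Ratios between genes within a library do not depend on how libraries are scaled, and the pairs here were chosen after their values were seen. They can still follow gene length, with which the JJ012 changes moved. Exonic lengths were 6222 bases for MCL1 and 2186 for PMAIP1, 4197 for BCL2L1 and 2587 for BAX. They were 9523 for XIAP and 6960 for DIABLO, and 7237 for CASP8 and 22478 for CFLAR. The part of length in these ratios was not tested. The summed FPKM of the 5 survival genes was 82.5 in JJ012 control, 140 in JJ012 with melatonin, 350.3 in 143B control and 441 in 143B with melatonin, of which MCL1 made 64.4%, 70.5%, 85.4% and 82.9%. The summed FPKM of the 8 BH3-only genes varied less, at 86.4, 93.2, 90.1 and 94.8. Survival over BH3-only FPKM was therefore 0.955 and 1.5 in JJ012, and 3.89 and 4.65 in 143B. What made up the BH3-only sum differed: the leading gene was BAD in JJ012 control (32.6%), HRK in JJ012 with melatonin (30.1%, from 5.09%) and PMAIP1 in 143B (55.9% and 59.9%). BOK made 57.6% and 60.5% of the effector sum in 143B and 0.660% and 0.0860% in JJ012. MCL1 over PMAIP1 was 2.86 and 9.08 in JJ012 and 5.94 and 6.44 in 143B. BCL2L1 over BAX was 0.980 and 2.78 in JJ012 and 0.306 and 0.318 in 143B. XIAP over DIABLO was 5.88 and 21.0 in JJ012 and 16.8 and 10.1 in 143B, and CASP8 over CFLAR was 1.88 and 3.36 against 0.850 and 0.562. CASP8 over CFLAR sets a pro-apoptotic gene over an anti-apoptotic one, and the other pairs are the reverse, so a higher ratio does not mean the same in each. As the pairs were picked with these values known, their shared rise in JJ012 follows from the choice and is a description. XIAP over DIABLO and CASP8 over CFLAR were lower with melatonin in 143B, where DIABLO was below the filter at 0.60 and 0.81 FPKM.

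**Figure D4:**
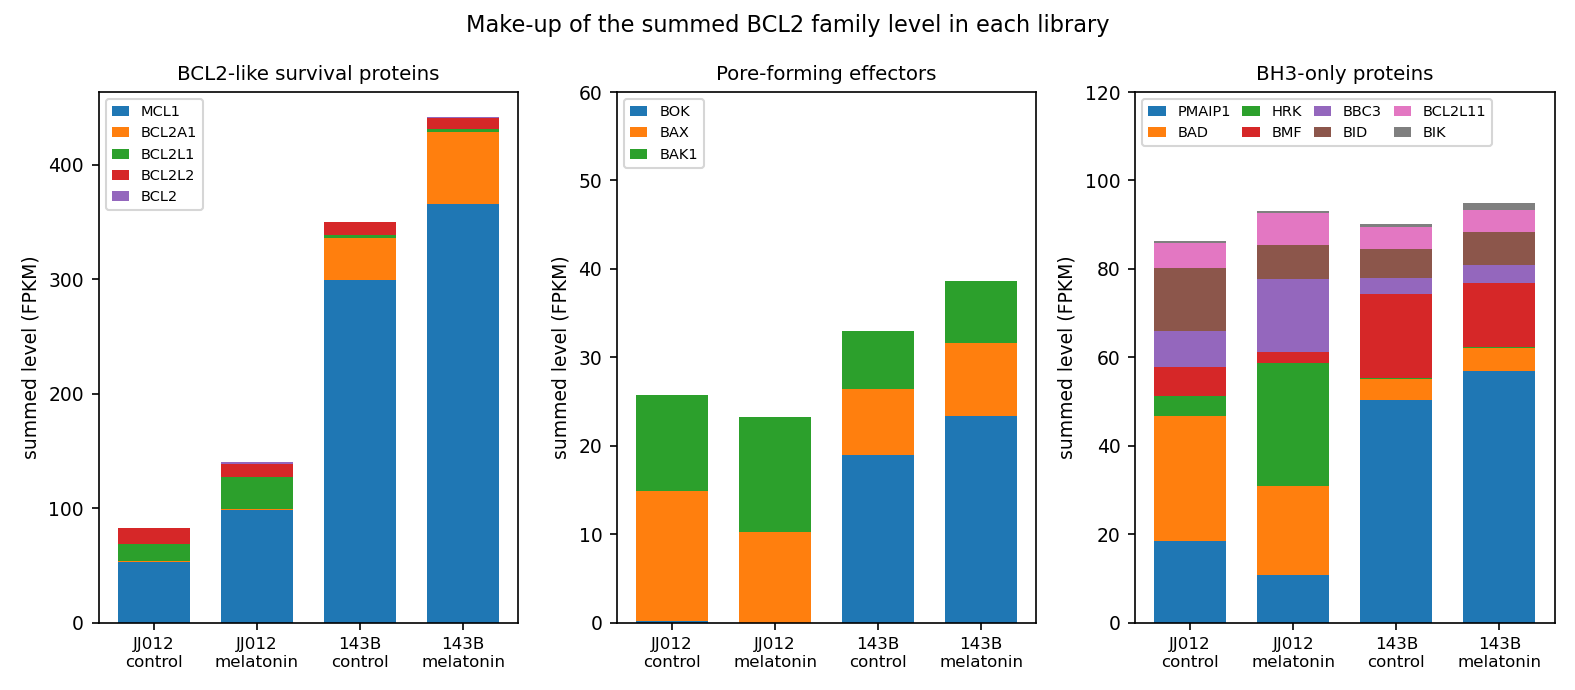
Summed FPKM of the BCL2-like survival genes, the pore-forming effectors and the BH3-only genes in each library, stacked by gene (bars start at 0; 1 library a bar). MCL1 fills most of the survival bars, BOK is a visible band in 143B, and HRK widens in JJ012 with melatonin while the BH3-only total stays between 86.4 and 94.8 FPKM.

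Of 65 further genes of the pathway, 52 passed the filter in JJ012, of which 5 rose and 14 fell (36.5%, median log2 fold change -0.11). Of all genes in JJ012, 38.2% were called (19.6% rose and 18.6% fell, median 0.008). In 143B 45 passed, of which 1 rose and 2 fell (6.67%, median -0.07), beside 12.7% of all genes (6.09% rose and 6.65% fell, median 0.03). TNFRSF12A, the receptor for TWEAK, rose in both lines, with 21.58 FPKM in JJ012 control against 33.43 FPKM with melatonin, and 14.22 against 22.13 FPKM in 143B. BIRC6, a giant IAP protein, rose with XIAP in JJ012, from 5.54 to 13.36 FPKM, and TNFRSF10B, the second TRAIL receptor with a death domain, rose there from 9.79 to 22.00 FPKM against 76.41 and 77.02 FPKM in 143B. The largest falls in JJ012 among genes at 5 FPKM or more were BIRC7 (14.13 to 3.68 FPKM, and listed at 0 in 143B), the death receptor TNFRSF25 (8.85 to 2.35 FPKM) and BNIP3, a mitophagy receptor induced by hypoxia (332.14 to 149.40 FPKM). LMNA, a nuclear lamin cut by caspases (8.49 to 5.04 FPKM), and LTBR, the lymphotoxin beta receptor (12.50 to 7.99 FPKM), fell in 143B. Of the 13 members that the deposited table places in the KEGG p53 signaling pathway, 10 passed the filter in each line, of which 4 rose and 2 fell in JJ012 (6 of 10, beside 38.2% of all genes) and none was called in 143B (beside 12.7%).

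Gene length moved with the calls. Across protein-coding genes in JJ012, exonic length and log2 fold change had a Spearman correlation of 0.399 (0.326 over the 32 members), and in 143B of -0.127 (-0.480 over 33 members). Genes are not independent replicates, and these values are descriptions. The 8 members that rose in JJ012 had a median exonic length of 6424 bases and the 4 that fell 3303 bases. With the running median over length subtracted, 10 of the 12 JJ012 calls were kept, PMAIP1 (-0.38) and TRADD (-0.48) dropped below the threshold and CASP10 and CFLAR were added as falls, while in 143B BCL2A1 alone was kept. PMAIP1 also lost its call on TPM (-0.49). The strand setting of the counting is not given in the sources used here, so reads of a member and of a gene on the other strand cannot be told apart where exons overlap. This touches BCL2L1, which shares 43.0% of its exonic bases with the antisense ABALON, FADD, which shares 54.9% with AP000879.1, and BAD, which shares 23.7% with GPR137. DIABLO shares 29.6% with a second gene entry of that name and BCL2L2 19.4% with BCL2L2-PABPN1, on the same strand, so their counts are uncertain. BMF and DFFA share 8.46% and 7.05% with antisense genes, and HRK shares none.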

How the data were processed

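Human JJ012 and 143B cells were profiled by bulk poly(A) RNA-seq, with 1 library for each of 4 conditions. Per the labels, reads were processed with cutadapt 1.9.1, HISAT2 2.2.1, HTSeq 0.6.1 and DESeq2 on hg38. The authors deposited raw counts per gene and FPKM per gene in 1 table, and the deposited FPKM equal the count divided by exonic length and library total, within rounding. Columns whose name ends in T were read as melatonin, which the table itself does not spell out, so every direction of change rests on that reading. The libraries held 15889564 to 19218343 counts, and 3 counts set the floor.

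Members, roles and lists were chosen with earlier results of these data known. Log2 fold changes used FPKM with 1 added, over all genes at 1 FPKM or more in a library compared, with calls at 0.58 and no test. CPM ratios carry exact Clopper-Pearson 95% intervals (scipy 1.17.1), which cover counting error only, as reads without molecular identifiers are not independent molecules. Melatonin over both lines was tested across all genes with edgeR 4.0.16 (quasi-likelihood F-test, TMM, filterByExpr, cell line as block, Benjamini-Hochberg) and, as an alternative, DESeq2 1.42.0. The block pairs libraries of the same line. Because only the 2 lines replicate the treatment, its p-values measure the spread between lines and not between cultures. Scripts were tested on simulated data. Named in full were every member called in either line and the most abundant of each role by FPKM. Of the other pathway genes, those called in both lines and the 3 largest rises and falls in each line at 5 FPKM or more were named. Promoters came from RefSeq (31 of 39 members matched) and overlaps from GENCODE 29. Alternatives changed the pseudocount, filter, threshold, scaling (TPM, TMM, CPM, median-centred), length trend and test.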

Additional observations from a re-analysis of the deposited data

How the results depend on the processing

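Within each line, every called member for which an alternative gave a fold change kept its direction. Between controls BAK1 went from 0.63 to -0.168 with the length trend removed, an alternative chosen after seeing the data that left 6 members higher in JJ012. Over both lines 9 members, none of them past an unadjusted p of 0.05 in edgeR, took the other sign in at least 1 alternative (APAF1, BOK, CASP10, CASP4, CASP6, DIABLO, HTRA2, TNFRSF10A and TNFRSF1A, at most 0.322 in size in the fit reported). In JJ012 the 8 rises and 4 falls became 2 and 1 at a threshold of 1, and 7 fell on CPM; over all genes the 6036 calls became 3352 at 5 FPKM or more, 12226 on TPM and 2327 at a threshold of 1. In 143B the 3 rises and 0 falls became 5 and 1 with a pseudocount of 0.1 FPKM, 1 fell on TPM and on CPM, 1 rose with the length trend removed and 0 rose at a threshold of 1. The 1801 calls over all genes in 143B became 2948 with a pseudocount of 0.1 FPKM, 547 at 5 FPKM or more, 6039 on TPM, 629 at a threshold of 1 and 1136 with fold and interval together. Between controls, 7 members were higher in JJ012 at a threshold of 1, and all genes called went from 11626 to 18419 on TPM and 6152 at 5 FPKM or more. The median of anti-apoptotic genes in 143B was -0.01 and became 0.025 on CPM. In JJ012 the anti-apoptotic median of 0.88 became -0.044 over all 10 genes without the filter and 0.446 without BCL2, also chosen after seeing the data. The 68 genes past the adjusted p of edgeR over both lines became 7 with DESeq2 and 0 without the cell line block, where 6 had an unadjusted p under 0.05 and no member passed. TPM moved the share of higher calls in JJ012 from 51.4% to 62.4% and the median of all genes from 0.01 to 0.27. The causes were not tested, beyond what the stricter thresholds remove by construction. With 1 library a condition, no library could be left out within a line, and depth limits genes with few counts, such as TNFRSF10D, BIK and BOK in JJ012.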
